A study of Drosophila melanogaster with 4 samples.

Results

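The genes described here were listed as genes of the blood-brain barrier of Drosophila melanogaster. They are moody, loco, Gli, Mdr65, Tret1-1, Indy and Oatp58Db, 7 genes of the 13997 listed in at least 1 library, taken by gene symbol. The list was chosen with earlier results of these data known, and whether Oatp58Db serves the barrier was not tested. RNA of whole central nervous systems was sequenced from larvae aged 96 hours, counted from egg laying. In the 2 reprogrammed samples the glial driver repo-Gal4 expressed constitutively activated Egfr and constitutively activated PI3K92E. In the 2 control samples the same driver expressed the red fluorescent protein mRFP. All 4 samples therefore carried repo-Gal4, which acts in nearly all glia and not in the barrier glia alone, and each was a pool of 70 to 100 nervous systems. Egfr is a receptor tyrosine kinase, and PI3K92E is the catalytic subunit of a phosphoinositide 3-kinase.

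The fly nervous system is sealed from the blood by 2 sheets of glia. The inner sheet, the subperineurial glia, closes the space between its cells with septate junctions. The outer sheet, the perineurial glia, faces the blood and takes up nutrients. The G protein-coupled receptor Moody and the G protein regulator Loco act in subperineurial glia to organise the cell cortex and the junctions. Gliotactin, the product of Gli, sits where 3 cells meet. Mdr65 pumps foreign compounds out, and the other 3 genes encode carriers for sugars, citrate and other carboxylates, and organic anions.

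Levels are in FPKM, a fragment count divided by transcript length and by the size of the library, so levels can be set beside each other between genes. From the spacing of the lowest values, 1 FPKM on a transcript of 1 kilobase was worth 11.2 and 11.5 reads in reprogrammed replicates 1 and 2, and 11.6 and 12.3 reads in control replicates 1 and 2. Changes are differences of log2(FPKM + 1), reprogrammed minus control, a scale that shrinks the change of weakly expressed genes, with the SE and the Benjamini-Hochberg adjusted p of limma over the 9851 genes tested (two-sided, 2 libraries per group). A gene is called where that adjusted p was under 0.05. With 1 library left out the number called over all genes also moved. Counts of calls moved with it in many lists but not in all. The fit was repeated with the libraries brought to one median of FPKM (median scaling), to one sum (sum scaling) or to one distribution (quantile scaling), and after a trend of the change on transcript length was taken out (length correction). Nothing in the labels says how the pools were drawn, so these p-values measure the spread between the samples, which may be technical. The targeted genes were higher in the reprogrammed libraries. Egfr stood at 58.9 and 49.3 FPKM in reprogrammed and 8.60 and 11.4 FPKM in control samples (2.33 ± 0.30, limma adjusted p = 0.0299). Pi3K92E stood at 287 and 253 FPKM in reprogrammed and 8.28 and 17.1 FPKM in control samples (4.38 ± 0.38, limma adjusted p = 0.0206). Without reprogrammed replicate 1 the limma adjusted p of Egfr was 0.104. The tables do not separate transgene from endogenous transcripts, and the effect of the transgenes cannot be told apart from other differences of line background.

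Of the 7 barrier genes, moody, Mdr65, loco and Gli were called higher, and none was called lower. Indy and Tret1-1 did not pass the test, and Oatp58Db was too low to be tested. Over all tested genes 4.11% were called higher and 8.13% lower, and 3358 of 9851 had an unadjusted limma p under 0.05. These shares are the background for the counts of calls in every list below. The median change of the 6 tested barrier genes was 2.03, beside −0.25 over all tested genes. As the barrier genes were chosen with earlier results of these data known, no test over the list was run. All 6 tested barrier genes were above the filter on low values in every library. In each of the 6, both reprogrammed libraries lay above both controls, as they did for 22.6% of all tested genes, and in 40.8% of tested genes both lay below. In whole tissue, a change in the number or share of cells cannot be told apart from a change in RNA per cell. Nor can transcripts of barrier glia be told apart from those of other cells.

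**Figure D1:**
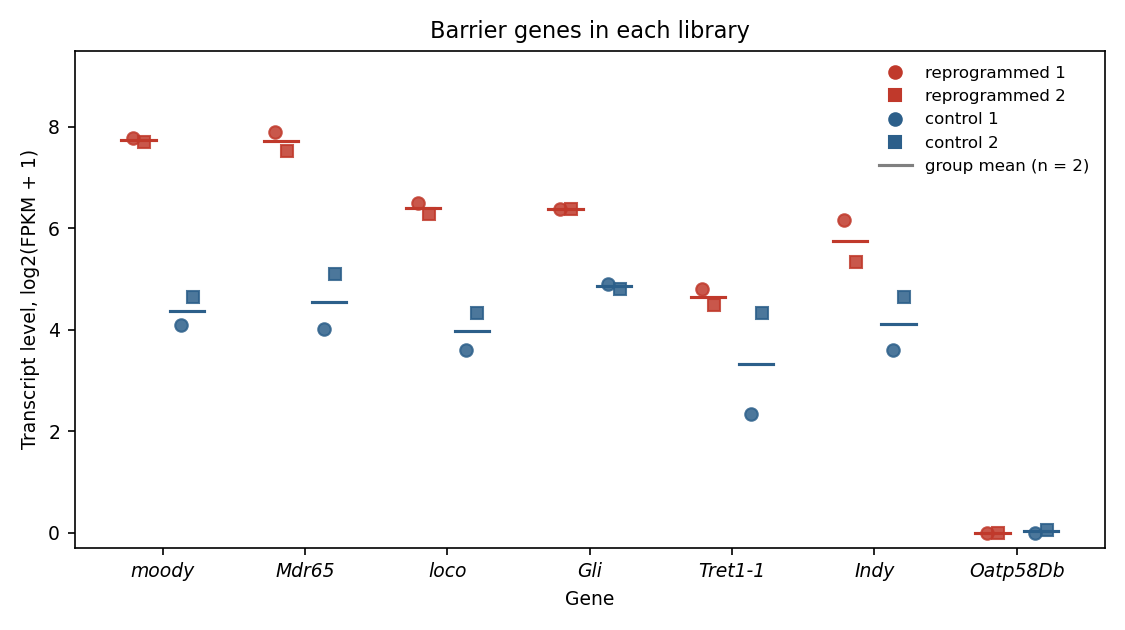
Transcript level of each barrier gene as log2(FPKM + 1) in each library, with reprogrammed samples in red and control samples in blue. Circles are replicate 1, squares replicate 2 and lines the mean of the 2 log2 values. Reprogrammed libraries lie above both controls for every gene but Oatp58Db, by the widest margin for moody and by the narrowest for Tret1-1.

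The receptor gene moody (NCBI gene 31168, chromosome X) stood at 218 and 207 FPKM in reprogrammed samples and at 16.1 and 24.1 FPKM in control samples. The reprogrammed pair differed little, and the lower of the pair was far above the higher control. The means were 212 ± 7.71 FPKM in reprogrammed and 20.1 ± 5.63 FPKM in control samples (SD, n = 2), a ratio of 10.6. The change was 3.36 ± 0.30 (SE; limma adjusted p = 0.0209), the increase of rank 59 among 9851 tested genes. Its gene span overlaps that of CG4313, which stood at 3.13 and 3.08 FPKM in reprogrammed and 5.23 and 5.70 FPKM in control samples, and the protocol names no step that keeps strand.

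The gene loco (NCBI gene 42672, chromosome arm 3R) encodes a regulator of G protein signalling that binds Gαi and acts with Moody. It stood at 89.6 and 77.3 FPKM in reprogrammed samples and at 11.2 and 19.1 FPKM in control samples. The groups did not overlap. It rose by 2.43 ± 0.34 (limma adjusted p = 0.0324), a smaller step than that of moody. In the same libraries loco read 0.41 and 0.37 times the moody level in reprogrammed samples, against 0.69 and 0.79 times in control samples. The gene span of loco overlaps those of lncRNA:CR43475 and asRNA:CR43474, each at 1.53 FPKM or less in every library.

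In a list of 9 G protein and related genes 1 passed the test, beside 4.11% called higher and 8.13% lower over all tested genes. The list held Galphai, Galphao, the β and γ subunit genes, protein kinase A subunits, the moody paralogue Tre1, Sema1a and RhoGAP100F. Sema1a and RhoGAP100F are not known parts of Moody signalling. Of the 9 genes 0 were called higher and 1 lower in limma (5 at an unadjusted p under 0.05), with a median change of −0.47. The lower gene was RhoGAP100F, known for its role at presynaptic terminals, at 5.65 and 6.63 FPKM in reprogrammed and 27.4 and 20.98 FPKM in control samples (−1.81 ± 0.32, limma adjusted p = 0.0363). Its call was lost with median scaling (0.0536), with quantile scaling (0.0608), with length correction (0.141) and without reprogrammed replicate 1 (0.302) or 2 (0.136). Galphai, the partner of Loco, stood at 172 and 174 FPKM in reprogrammed and 92.2 and 87.5 FPKM in control samples (0.94 ± 0.25, limma adjusted p = 0.0624). The most abundant uncalled genes were Ggamma1, at 3053 and 2727 FPKM in reprogrammed and 3153 and 1618 FPKM in control samples, and Gbeta13F, at 269 and 260 FPKM in reprogrammed and 333 and 238 FPKM in control samples. Ggamma1 was called higher without control replicate 1 (0.83, adjusted p = 0.0386), and its change was −0.13 without control replicate 2. As over all genes, the list gave more calls without either control. It gave 4 lower with sum scaling and 2 lower with a filter of 5 FPKM. It gave 0 with median scaling, with quantile scaling, with length correction and without either reprogrammed library.

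The junction gene Gli (NCBI gene 34927, chromosome arm 2L) encodes a neuroligin-like protein of tricellular junctions. It stood at 81.87 FPKM in both reprogrammed libraries and at 29.1 and 26.9 FPKM in control samples. It was the steadiest of the barrier genes within both groups, and its groups were far apart against that spread. It rose by 1.52 ± 0.25 (limma adjusted p = 0.0340), with a ratio of means of 2.93. The call was lost without reprogrammed replicate 1 (adjusted p = 0.300) or 2 (0.186), with the change still at 1.52. In those fits only the control pair gives a spread, which limma pools over all genes, and the SE of Gli was 0.67.

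The other tricellular junction genes were not called. Of bark (also called aka), which recruits Gliotactin to these corners, and M6, a tetraspan protein gene, limma called 0 of 2 (1 at an unadjusted p under 0.05). The gene bark stood at 1.35 and 1.22 FPKM in reprogrammed and 2.84 and 3.34 FPKM in control samples, and M6 at 61.2 and 50.3 FPKM in reprogrammed and 51.5 and 44.9 FPKM in control samples. Without control replicate 1 limma called bark lower (−0.93, adjusted p = 0.0484). In a septate junction list of 21 genes 1 was called higher and 2 lower, with a median change of 0.44. The higher one was nrv2, a Na+/K+ ATPase β subunit gene that is also a general glial marker. It stood at 1763 and 1497 FPKM in reprogrammed and 391.97 and 369.83 FPKM in control samples (2.09 ± 0.31, limma adjusted p = 0.0324).

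The lower genes of that list were yrt, which encodes a FERM-domain polarity protein, and Nrt, which encodes the adhesion protein Neurotactin. Whether Nrt serves the junction was not tested here. The gene yrt stood at 5.54 and 5.94 FPKM in reprogrammed and 16.1 and 15.7 FPKM in control samples (−1.33 ± 0.30, limma adjusted p = 0.0474). Nrt stood at 45.6 and 46.1 FPKM in reprogrammed and 114.54 and 96.78 FPKM in control samples (−1.18 ± 0.26, limma adjusted p = 0.0444). Both lost their call with median scaling (0.0690 and 0.143), with quantile scaling (0.0970 and 0.0529) and with length correction (0.17 and 0.306), and Nrt also without the mean-variance trend (0.0543). Among uncalled genes of the list the 2 most abundant were Lac, an adhesion protein gene, and the ATPase α subunit gene Atpalpha. Lac stood at 526 and 453 FPKM in reprogrammed and 279 and 209 FPKM in control samples, and Atpalpha at 390 and 352 FPKM in reprogrammed and 262 and 330 FPKM in control samples. Lac was called higher without control replicate 1 (adjusted p = 0.0206) or 2 (0.0469). As over all genes, the list gave more calls without either control. Without reprogrammed replicate 1 or 2 it gave 0, with nrv2 at adjusted p of 0.215 and 0.0792.

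The efflux pump gene Mdr65 (NCBI gene 38726, chromosome arm 3L), a fly P-glycoprotein, stood at 238 and 184 FPKM in reprogrammed samples and at 15.1 and 33.4 FPKM in control samples. With 1 annotated transcript, these values correspond to about 10922 and 8646 reads in reprogrammed and 714 and 1674 reads in control libraries, so counting error is small beside the spread between pools. The controls differed 2.21-fold from each other, and the reprogrammed samples lay well above both. The means were 211 ± 38.5 FPKM in reprogrammed and 24.2 ± 12.9 FPKM in control samples (SD, n = 2), a ratio of 8.71. The change was 3.16 ± 0.42 (limma adjusted p = 0.0315). Within a library Mdr65 stayed near moody, at 1.09 and 0.89 times its FPKM in reprogrammed and 0.94 and 1.39 times in control samples, and these ratios overlap between groups.

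Of 8 tested ATP-binding cassette transporter genes other than Mdr65, 1 was called higher and none lower, with a median change of 0.00. The called gene was the pigment precursor transporter w, at 567 and 666 FPKM in reprogrammed and 70.6 and 85.4 FPKM in control samples (2.97 ± 0.28, limma adjusted p = 0.0222). Fly transgenes commonly carry a copy of w as an eye colour marker, the genotypes differ in their transgenes, and the tables do not separate such copies from the endogenous gene. The paralogue Mdr49 stood at 7.22 and 6.73 FPKM in reprogrammed and 2.80 and 4.80 FPKM in control samples, without a call (0.76 ± 0.36, limma adjusted p = 0.20). The paralogue Mdr50 was at 0.02 FPKM or less in every library. The most abundant uncalled genes were snu, at 3.71 and 6.70 FPKM in reprogrammed and 11.6 and 11.5 FPKM in control samples, and MRP, at 6.03 and 5.73 FPKM in reprogrammed and 8.15 and 9.14 FPKM in control samples. With length correction 3 genes of the list were higher, and without control replicate 2 it gave more calls, as did the test over all genes.

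The carboxylate carrier gene Indy (NCBI gene 40049, chromosome arm 3L), which moves citrate and related acids across the plasma membrane, stood at 70.9 and 39.2 FPKM in reprogrammed samples and at 11.1 and 24.0 FPKM in control samples. The groups did not overlap, but each pair differed by a larger ratio than the nearest libraries of the 2 groups did. The change was 1.63 ± 0.48 (limma adjusted p = 0.0733). The gene span of Indy overlaps that of lncRNA:CR32027, which stood at 10.6 and 5.19 FPKM in reprogrammed and 3.26 and 4.99 FPKM in control samples. Indy passed the test with median scaling (1.96, adjusted p = 0.0483) and without control replicate 2 (2.15, adjusted p = 0.0304), and its change was 1.11 without control replicate 1 (adjusted p = 0.0867).

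The trehalose carrier gene Tret1-1 (NCBI gene 36248, chromosome arm 2R), known from the perineurial sheet, stood at 26.9 and 21.3 FPKM in reprogrammed samples and at 4.04 and 19.1 FPKM in control samples. Control replicate 2 came close to the reprogrammed pair, and control replicate 1 was far below it. The change was 1.31 ± 0.66 (limma adjusted p = 0.225). Without control replicate 1 it was 0.31 (adjusted p = 0.309), and without control replicate 2 it was 2.31 (adjusted p = 0.0202), so the value rests on which control is kept. The gene span of Tret1-1 overlaps that of Roc2, which stood at 97.9 and 102 FPKM in reprogrammed and 190 and 104 FPKM in control samples. Reads of the related Tret1-2 could also be shared, and it stood at 1.28 and 0.93 FPKM in reprogrammed and 0.29 and 0.75 FPKM in control samples.

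The organic anion carrier gene Oatp58Db (NCBI gene 37544, chromosome arm 2R) was not detectable at this depth in 3 of the 4 libraries. Both reprogrammed samples and control replicate 1 have no entry for it, and there a count of 0 allows up to 0.131, 0.128 and 0.126 FPKM (3 counts per library, counting error only). In control replicate 2 it stood at 0.04 FPKM, which corresponds to 1 read. Its neighbour Oatp58Da was equally low, and Oatp58Dc stood at 5.44 and 7.48 FPKM in reprogrammed and 1.96 and 5.63 FPKM in control samples. Among 4 tested genes of the family other than Oatp58Db limma called 0 (0 at an unadjusted p under 0.05), with a median change of −0.01. The most abundant were Oatp74D, a carrier that imports ecdysone, at 22.01 and 23.16 FPKM in reprogrammed and 15.2 and 55.4 FPKM in control samples, and Oatp30B, at 5.19 and 5.15 FPKM in reprogrammed and 10.2 and 7.43 FPKM in control samples. Oatp74D was called lower without control replicate 1 (−1.26, adjusted p = 0.0198), and Oatp30B without control replicate 2 (−0.86, adjusted p = 0.0497), where 1 other gene of the list was called higher.

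Other nutrient carriers went in both directions. Of 5 tested sugar transporters Slc45-1 was called higher and Glut1 lower, with a median change of 0.45. Slc45-1, a sucrose transporter, stood at 19.8 and 24.5 FPKM in reprogrammed and 8.79 and 6.0 FPKM in control samples (1.47 ± 0.34, limma adjusted p = 0.0474). Glut1, a glucose transporter, stood at 9.71 and 11.5 FPKM in reprogrammed and 47.5 and 31.2 FPKM in control samples (−1.77 ± 0.33, limma adjusted p = 0.0383). The call of Slc45-1 was lost with sum scaling (0.0648) and with quantile scaling (0.0598). That of Glut1 was lost with median scaling (0.0719), with quantile scaling (0.0649) and with length correction (0.155). Without reprogrammed replicate 1 or 2 neither was called (0.371 and 0.384 for Slc45-1, 0.273 and 0.105 for Glut1).

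The carbohydrate carrier gene pippin, known from perineurial glia, stood at 17.4 and 21.5 FPKM in reprogrammed and 3.95 and 8.09 FPKM in control samples (1.60 ± 0.40, limma adjusted p = 0.0564). It passed the test with median scaling (0.0321), with quantile scaling (0.0374), with length correction (0.0309), with a filter of 5 FPKM (0.0449) and without control replicate 1 (0.0259) or 2 (0.0203). The uncalled bdg, which belongs by family to the sodium-coupled symporters, stood at 10.1 and 10.2 FPKM in reprogrammed and 4.94 and 10.3 FPKM in control samples, and was called higher without control replicate 2 (0.91, adjusted p = 0.0424). The sugar list then also gave more calls, as the test did over all genes. Among 13 carriers of carboxylates, amino acids and chloride 1 was called, the amino acid transporter gene sbm. It stood at 123 and 129 FPKM in reprogrammed and 57.9 and 44.5 FPKM in control samples (1.30 ± 0.27, limma adjusted p = 0.0415). The list's median change was 0.13. The list gave 3 higher with length correction. As over all genes, it gave more calls without either control and fewer without either reprogrammed library. The call of sbm was lost with median scaling (0.0509), with sum scaling (0.0514), with quantile scaling (0.0722) and without reprogrammed replicate 1 (0.367) or 2 (0.280). The most abundant uncalled genes of that list were CG1607, at 77.3 and 106 FPKM in reprogrammed and 104.04 and 103.72 FPKM in control samples, and JhI-21, a gene called without control replicate 2 (adjusted p = 0.0301), at 110.2 and 61.8 FPKM in reprogrammed and 18.1 and 44.7 FPKM in control samples.

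In reprogrammed samples the order of the mean levels was moody, Mdr65, loco, Gli, Indy, Tret1-1 and Oatp58Db. The ranges of moody and Mdr65 overlapped, as did those of loco and Gli, and the steps from Mdr65 to loco, from Gli to Indy, from Indy to Tret1-1 and from Tret1-1 to Oatp58Db lay outside the spread. In control samples the order was Gli, Mdr65, moody, Indy, loco, Tret1-1 and Oatp58Db. There every neighbouring pair from Gli to Tret1-1 overlapped, and only the step to Oatp58Db did not. The control means ran from 28.0 FPKM for Gli down to 11.6 FPKM for Tret1-1, and the reprogrammed means from 212 FPKM for moody down to 24.1 FPKM for Tret1-1.

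The barrier genes also varied within the control group. In control replicate 2, 5 of the 6 tested genes exceeded their level in the other control, by 1.49-fold for moody, 1.71-fold for loco, 2.16-fold for Indy, 2.21-fold for Mdr65 and 4.72-fold for Tret1-1, while Gli stood at 0.93 times. The glial transcription factor gene repo stood 1.91-fold higher there. Over all tested genes the median ratio of control replicate 2 to control replicate 1 was 1.24, taken on FPKM + 1. The ratios of the barrier genes and repo are of FPKM without the added 1, so the 2 measures are not quite alike.

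The summed level of fat body markers was also higher in control replicate 2. The fat body, the main metabolic organ of the larva, is also known to express Indy and Tret1-1. Of 8 fat body markers 7 were listed, and their summed level was 66.9 and 511 FPKM in reprogrammed and 230.0 and 1393 FPKM in control replicates 1 and 2. Of these 7 markers 6 were higher in control replicate 2 than in replicate 1. The exception was Fbp1, at 0.11 and 3.54 FPKM in reprogrammed and 45.03 and 22.45 FPKM in control samples, and the sum in control replicate 2 was largely Lsp1beta, at 801 FPKM. In limma 1 of 7, Fbp1, was called lower and none higher, a call lost with median scaling, quantile scaling, length correction or a pseudocount of 0.1, while 6 markers were called lower without reprogrammed replicate 2, and 1 higher and 1 lower without control replicate 2. The marker Yp1 was listed in no library. The summed level of 5 muscle markers was 27.9 and 104 FPKM in reprogrammed and 72.9 and 363 FPKM in control samples, with 0 of 5 called in limma (1 at an unadjusted p under 0.05), and 2 called lower without control replicate 1 or without reprogrammed replicate 2. That of 7 blood cell markers was 373 and 488 FPKM in reprogrammed and 739 and 313 FPKM in control samples, with 1 called lower. Leaving out either reprogrammed library gave fewer calls and leaving out either control gave more, as over all genes. The summed level of 6 trachea markers was 74.7 and 93.6 FPKM in reprogrammed and 243 and 329 FPKM in control samples, with 3 called lower. The count was 1 with quantile scaling. It was smaller without either reprogrammed library and larger without either control, as over all genes. Markers of the Malpighian tubule, which uses organic anion carriers, summed to 48.1 and 49.5 FPKM in reprogrammed and 18.5 and 31.7 FPKM in control samples, with its defining enzyme gene Uro at 0.15 FPKM or less and 0 of 3 tested markers called in limma (1 at an unadjusted p under 0.05), and 1 called higher with median scaling or without either control. The part of these tissues in the levels of Indy and Tret1-1 was not tested. In the reprogrammed pair both genes were higher in replicate 1, where 6 of the 7 fat body markers were lower. The exception was apolpp, at 59.7 and 40.3 FPKM in reprogrammed and 15.4 and 70.4 FPKM in control samples.

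Since repo marks all lateral glia, the barrier genes were also set against repo within each library, a ratio that multiplying a library by one factor does not move, while quantile scaling and length correction can. The gene repo stood at 60.7 and 51.5 FPKM in reprogrammed and 12.4 and 23.7 FPKM in control samples (1.64 ± 0.38, limma adjusted p = 0.0474). Its call was lost with sum scaling (0.0724), with a pseudocount of 0.1 (0.0520), without the mean-variance trend (0.0511) and without reprogrammed replicate 1 (0.332) or 2 (0.133). Relative to repo, moody stood at 3.59 and 4.02 in reprogrammed and 1.30 and 1.01 in control samples. Mdr65 stood at 3.92 and 3.57 in reprogrammed and 1.21 and 1.41 in control samples. The ratio of loco was 1.477 and 1.501 in reprogrammed and 0.90 and 0.80 in control samples.

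For these 3 genes the ratio to repo did not overlap between groups, that is, in every pairing of a reprogrammed with a control library they differed by more than repo did. For the other 3 it overlapped. Gli over repo was 1.35 and 1.59 in reprogrammed and 2.34 and 1.13 in control samples. Indy over repo was 1.17 and 0.76 in reprogrammed and 0.89 and 1.01 in control samples, and Tret1-1 over repo was 0.44 and 0.41 in reprogrammed and 0.33 and 0.80 in control samples. These ratios are given as a description and were not tested. The share of all tested genes whose ratio to repo separates the groups was not computed, so this count of 3 has no share beside it.

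**Figure D2:**
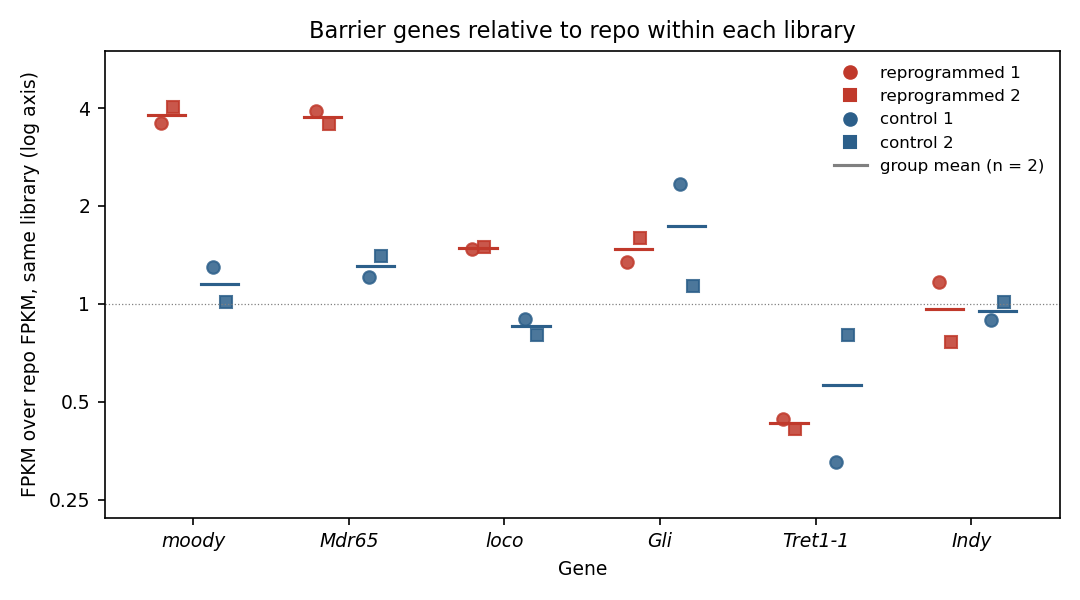
FPKM of each of 6 barrier genes divided by the FPKM of repo in the same library, on a log axis, with reprogrammed samples in red and control samples in blue. Lines are group means of 2 libraries. The ratios of moody, Mdr65 and loco lie higher in both reprogrammed libraries, with moody at 3.59 and 4.02 against 1.30 and 1.01 in controls, and those of Gli, Tret1-1 and Indy overlap between groups.

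Markers of other glia were set beside the barrier genes. Of 10 perineurial and barrier markers 2 were called higher and none lower, with a median change of 0.50. SPARC, which encodes a collagen-binding matrix protein, stood at 352 and 227 FPKM in reprogrammed and 28.1 and 64.1 FPKM in control samples (2.71 ± 0.46, limma adjusted p = 0.0350). Cyp6a20, a cytochrome P450 gene, stood at 60.6 and 20.5 FPKM in reprogrammed and 0.29 and 2.21 FPKM in control samples (4.16 ± 0.67, limma adjusted p = 0.0340). The most abundant uncalled genes of that list were PRL-1, at 319 and 295 FPKM in reprogrammed and 292 and 193 FPKM in control samples, and bnb, at 142 and 192 FPKM in reprogrammed and 160.3 and 197 FPKM in control samples. PRL-1 was called higher without control replicate 1 (adjusted p = 0.0432). As over all genes, the list gave more calls without either control.

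Of 5 cortex glia markers 2 were called higher (median change 1.63), and of 7 astrocyte-like glia markers 2 were called higher (median change 0.91), with none lower in either list. Of 8 general glial markers, among them loco and nrv2 again, 4 were called higher and 1 lower (median change 0.77). Of 10 neuron markers 9 were called lower (median change −1.82), and of 6 neural stem cell markers 4 were called lower (median change −2.16). Without either control more cortex and astrocyte-like glia markers were called higher, as were more genes over all. Quantile scaling left 1 for astrocyte-like glia. Leaving out either reprogrammed library gave fewer higher genes in the cortex, astrocyte-like and general glial lists, as it did over all genes. The lower neuron markers numbered 4 with median or quantile scaling, 2 with length correction, 2 without reprogrammed replicate 1 and 6 without replicate 2, and the lower neural stem cell markers 0 and 4. Whether the barrier genes differ from the other glial lists was not tested, and the lists were chosen with earlier results of these data known.

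**Figure D3:**
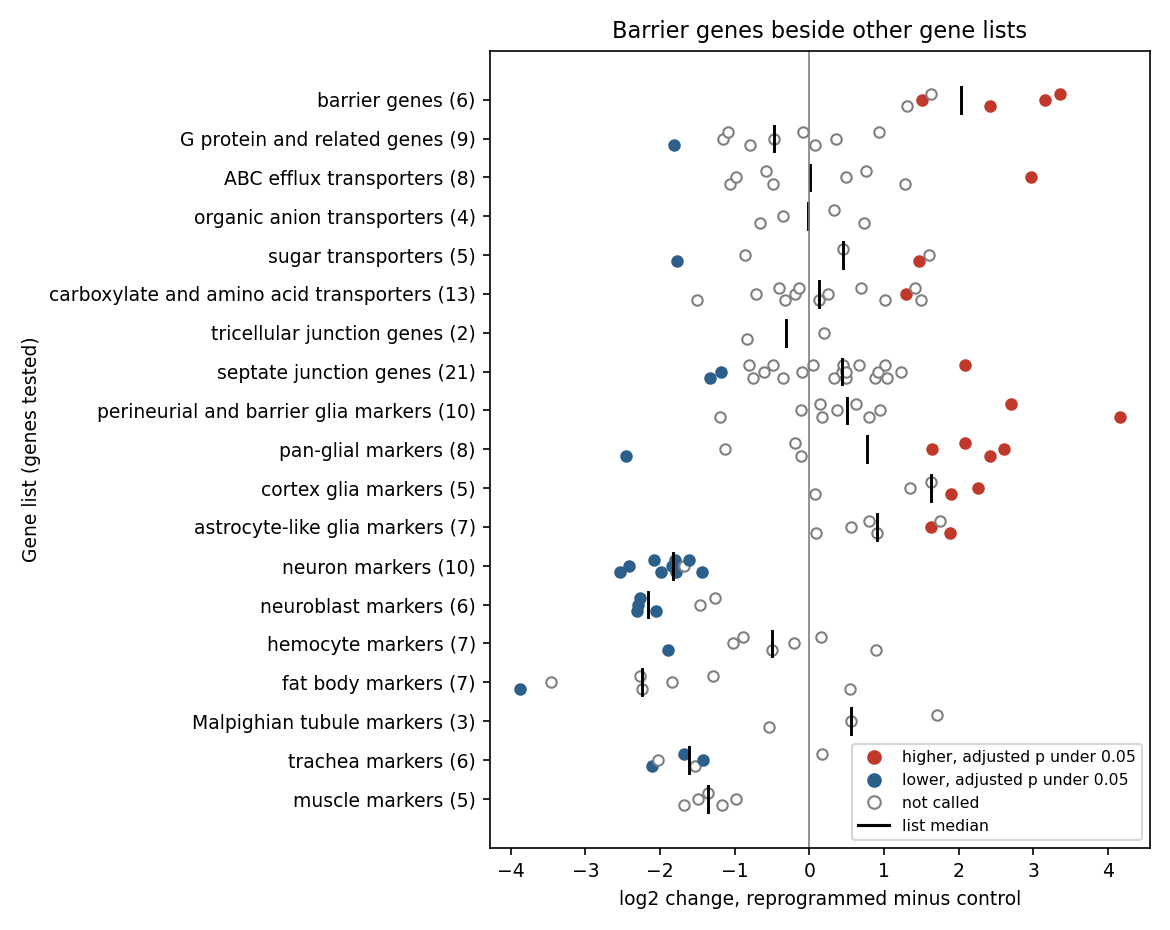
Change on the log2(FPKM + 1) scale, reprogrammed minus control, of each tested gene in the barrier group and in 18 further lists. Filled red points were called higher and filled blue points lower in limma (adjusted p under 0.05), open points were not called, and black bars are list medians. The barrier genes lie at 1.31 or more with a median of 2.03. The medians of the transporter, G protein and junction lists lie between −0.47 and 0.45. Those of glial lists are 1.63 for cortex, 0.91 for astrocyte-like, 0.77 for general glial and 0.50 for perineurial and barrier markers.

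Transcript length and library scaling bear on all of these genes. Their longest annotated transcripts run from 2600 bases for Indy to 5330 bases for loco among the 6 tested, against a median of 1958 bases over all tested genes. The 2521 tested genes within that range had a median change of −0.66, below that of all tested genes. With length correction the changes were larger, at 3.95 for moody, 3.81 for Mdr65, 3.21 for loco, 2.21 for Gli, 1.93 for Indy and 1.77 for Tret1-1. With sum scaling they were smaller, at 3.10, 2.89, 2.17, 1.25, 1.37 and 1.06 in the same order. The 4 calls held under both. With low genes kept in, limma called 0 of the 7 (5 at an unadjusted p under 0.05), with an adjusted p of 0.0843 for each of the 4. In that fit it called 0 of 13997 genes.

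**Figure D4:**
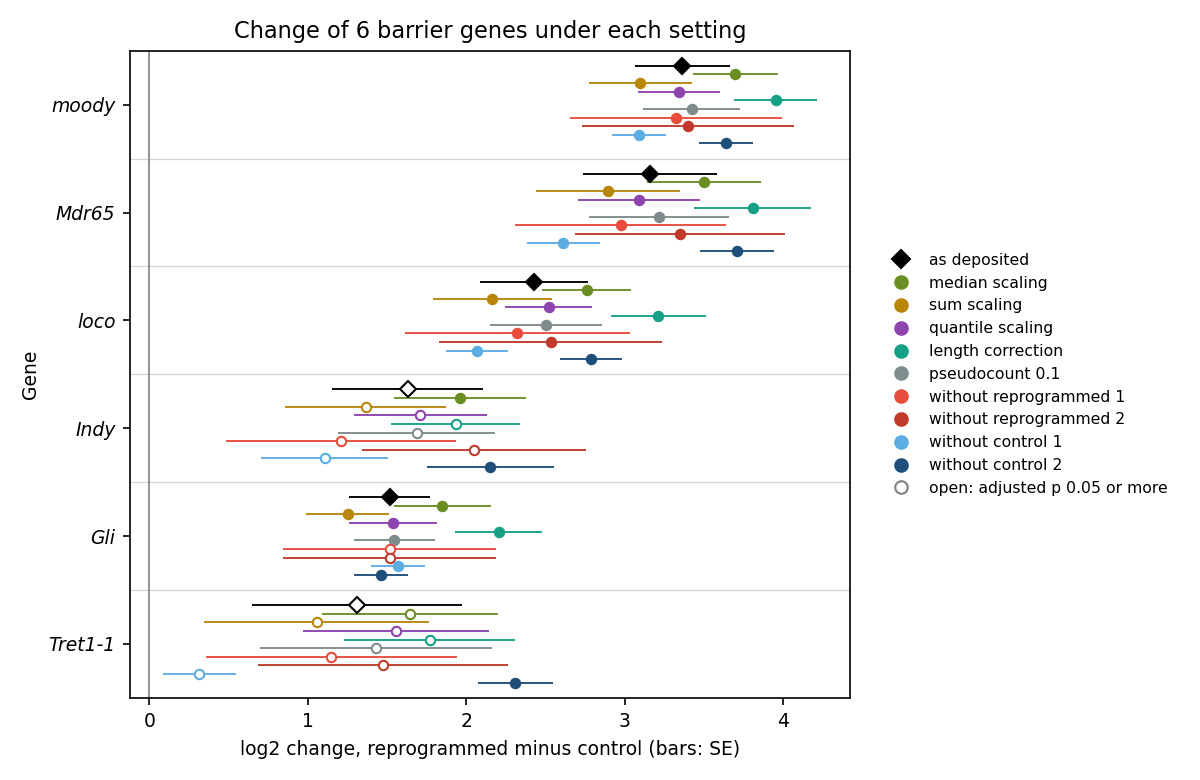
Change of 6 barrier genes on the log2 scale, reprogrammed minus control, with FPKM as deposited (diamond) and under 9 alternatives (circles: 3 scalings, length correction, a pseudocount of 0.1 and each library left out), with bars of 1 SE. The fit with low genes kept in, where no gene was called, is not drawn. Filled symbols have an adjusted p under 0.05. In the settings drawn, the points of moody, Mdr65 and loco stay at 2.07 or more and filled, those of Gli stay at 1.25 or more and open up without either reprogrammed library, and those of Tret1-1 run from 0.31 to 2.31 with the control that is kept.

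The genes most like each barrier gene over the 4 libraries were found by the smallest Euclidean distance between log2(FPKM + 1) profiles, each centred on its mean, among genes averaging 5 FPKM or more. For moody they were Cyp9h1 (distance 0.27), at 68.0 and 64.6 FPKM in reprogrammed and 4.41 and 5.40 FPKM in control samples, and Cyp12c1 (0.28), at 18.1 and 17.4 FPKM in reprogrammed and 0.60 and 1.80 FPKM in control samples. For Mdr65 they were CG32032 (0.09), at 437 and 331 FPKM in reprogrammed and 28.8 and 57.6 FPKM in control samples, and the asparagine synthetase gene AsnS (0.26). For loco they were CG13631 (0.18) and CG7272 (0.20), and for Gli PolZ2 (0.10) and the ubiquitin gene Ubi-p5E (0.12). For Tret1-1 they were CG16758 (0.18) and Esyt2 (0.25), and for Indy ltl (0.18) and the amino acid carrier gene JhI-21 (0.20). None of these was another barrier gene, since those were left out of the search. With 4 libraries in 2 groups such a profile holds little more than the group difference and the spread within each pair.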

How the data were processed

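Per the labels' protocols, mRNA was selected with oligo(dT) beads and copied from random primers, with no step named that marks strand. For each sample the authors deposited a table of gene numbers and FPKM values with 2 decimals. Per the submitters' processing notes the tools were HISAT and Bowtie2. As the genome build was not given in the sources used here, nor versions or a quantifier, positions stay at the level of the chromosome arm. Sequences were not used here.

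A gene missing from a table was set to 0. NCBI gene numbers were named from a RefSeq gene table (Release 6 plus ISO1 MT), which matched 13959 of 13997, and transcript lengths came from an Ensembl BDGP6 annotation. Reads per FPKM came from single-transcript genes, of whose low values between 95.1% and 96.9% were whole within 0.15 reads, against 30.0% by chance.

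The test took genes that reached 1 FPKM in 2 libraries or more, as log2(FPKM + 1), in limma 3.58.1 in R 4.3.3 (eBayes with a mean-variance trend, group as the only term, 2 residual and 3.71 prior degrees of freedom). Python 3.11.15, numpy 2.4.6, pandas 2.3.3 and matplotlib 3.10.9 were also used. The barrier genes, the 18 further lists (157 of 161 symbols listed) and the tests were chosen with earlier results of these data known. Genes named are the barrier genes, the driver and targeted genes, in the pathway lists up to 4 called and the 2 most abundant uncalled genes, and the 2 genes of most like profile. Galphai, Mdr49, Mdr50, Oatp58Da, Oatp58Dc, Tret1-2, Roc2, CG4313, lncRNA:CR32027, lncRNA:CR43475, asRNA:CR43474, vkg, Uro, Fbp1, Lsp1beta, apolpp and Yp1 were named outside that rule, after their values were seen. In the cell type marker lists other than perineurial and barrier markers otherwise only counts and sums are given. Alternatives were other scalings, filters and pseudocounts, removal of a length trend (loess, span 0.5), a log2 change of at least 1, no mean-variance trend, the replicate number as a block, and each library left out.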

Additional observations from a re-analysis of the deposited data

How the results depend on the processing

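The directions of moody, Mdr65, loco, Gli, Indy and Tret1-1 were positive under all alternatives, and the number of barrier genes called was between 3 and 6 with 1 library left out. When low genes were kept in, limma called 0 barrier genes (5 at an unadjusted p under 0.05) and 0 of 13997 genes (3629 at an unadjusted p under 0.05), with a smallest adjusted p of 0.0843. Over all genes limma called 1206, and this became 618 with quantile scaling, 740 with length correction, 2779 with the replicate block, and between 256 and 4578 with 1 library left out. The share of calls that were higher was 33.6%, against 57.2% with median scaling, 20.2% with sum scaling, 59.7% with quantile scaling and 60.1% with length correction. The median change over all genes was −0.25 with FPKM as deposited, and 0.06, −0.49, −0.04 and −0.05 in these fits. The causes were not tested. The replicate number does not pair the samples by any label, and deviations of same-numbered samples correlated at −0.03 over genes. With the replicate block Indy (adjusted p = 0.000596) and Tret1-1 (0.0139) were also called, so all 6 tested barrier genes passed. Genes without a call changed sign in some fits. With length correction the changes were 0.69 for Gbeta13F, 0.32 for MRP, 0.28 for Oatp74D, 0.14 for Oatp30B, 0.25 for CG1607, 0.22 for bark and 0.14 for bnb. With median scaling they were 0.25 for Gbeta13F, 0.14 for CG1607 and 0.24 for bnb, with sum scaling −0.064 for M6, and with quantile scaling −0.044 for Atpalpha. With 1 library left out the ranges that crossed 0 were Ggamma1 −0.13 to 0.83, Gbeta13F −0.33 to 0.15, Oatp74D −1.26 to 0.54, bdg −0.0199 to 0.91, CG1607 −0.42 to 0.0294 and bnb −0.32 to 0.11. Depth limits Oatp58Db alone among the barrier genes, and the 2 pools per group limit the rest.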
